A study of Mus musculus with 20 samples.

Results

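Sphingosine-1-phosphate (S1P) is a signaling lipid that is made from sphingosine inside cells, exported, and read by G protein-coupled receptors at the cell surface. In blood vessels, S1P signaling is known for holding endothelial junctions together and for limiting sprouting, and in the immune system for guiding lymphocytes out of tissues. The 9 genes described here cover that route: the receptors S1pr1, S1pr2, S1pr3 and S1pr4, the sphingosine kinases Sphk1 and Sphk2, the exporter Spns2, the cell surface phosphatase Plpp3 and the S1P lyase Sgpl1. They were chosen by name among the 55866 genes of the count table, where all 9 had counts, and all 9 passed the filter on low counts in every comparison.

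The data came from RiboTag EC mice, females on a C57BL/6J background in which a floxed Rpl22 allele gives an HA-tagged ribosomal protein wherever tamoxifen-inducible Cre under the Cdh5 promoter has been active, that is, in endothelial cells (EC). All mice, controls included, received tamoxifen at 75 mg/kg for 5 days from 3 weeks of age and Py8119 breast carcinoma cells, which carry no tag, in the mammary fat pad at 8 weeks. The treated group then received 25 mg/kg of 6-3-A6, a mouse antibody that blocks Notch4, and the control group received control mouse IgG, over 10 days. Treatment began at a tumor volume of 30 mm3 by the sample labels and methods, and of 50 mm3 by the description of the design. From each of 5 tumors per group, RNA of the tumor homogenate (input) and RNA recovered with the tagged ribosomes by anti-HA immunoprecipitation (IP) were sequenced, so that each of the 4 groups held 5 libraries. In bulk samples of this kind, fewer cells of a type and less RNA per cell cannot be told apart.

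The libraries held between 11881214 and 26728205 counts on genes. All 12 endothelial markers examined, among them Pecam1 and Cdh5, had higher levels in IP, by a median of 4.26 and a range of 3.16 to 4.94 on the log2 scale. The summed level of 12 macrophage markers was still 3347 to 8856 CPM (counts relative to library size, scaled by TMM, the trimmed mean of M values) in IP, against 5654 to 14356 CPM in input. That of the 12 endothelial markers in IP was 915 CPM (6-3-A6 tumor 2) to 5823 CPM (control IgG tumor 3). In control IgG IP 4 the endothelial sum was 1286 CPM and the macrophage sum 7698 CPM. The input library of 6-3-A6 tumor 4 stood apart, with 38.2% of its counts on mitochondrial genes, against 6.90% to 17.2% in the other input libraries. The mean level of the endothelial markers varied among IP libraries from 5.60 to 8.25 on the log2 CPM scale, lowest in 6-3-A6 tumor 2 and control IgG tumor 4. The study left out IP libraries 1 and 3 of the control IgG group and 2 and 5 of the 6-3-A6 group as outliers after principal component analysis, and the treatment comparison is therefore given for its 6 libraries and for all 10.

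The genes differed in how firmly their levels could be read. Reads were counted over the whole gene, introns included, and all 6072 genes that lie entirely inside a gene of the other strand (and overlap none on their own) held 0 counts in every library. Of the S1pr3 gene, 71.0% was overlapped by Gm32834 on the other strand. For Sphk1, the share overlapped on the other strand (by Gm29292) was 37.4%, and for Sphk2 (by Dbp and Rpl18) 38.5%. The levels of these 3 genes may thus be understated against those of other genes. S1pr1, S1pr2, S1pr4 and Plpp3 were overlapped by no gene, and Spns2 and Sgpl1 over 0.342% and 0.202% of their length.

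Among the receptors, S1pr1 was the most abundant in IP. It encodes the receptor that signals through inhibitory G proteins and strengthens endothelial junctions, and it was counted on chromosome 3 from 115504082 to 115508721 (minus strand, GRCm39 numbering). S1pr1 was at 34.5, 25.3, 36.2, 28.3 and 29.1 CPM in control IgG input libraries 1 to 5 and at 492, 362, 580, 129 and 204 CPM in the IP libraries of the same tumors. In 6-3-A6 tumors, S1pr1 was at 38.1, 26.6, 40.8, 35.4 and 14.0 CPM in input and at 568, 101, 474, 526 and 322 CPM in IP. Every IP library lay above every input library, and the spread was wider in IP, where the lowest and the highest library differed 5.76-fold.

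S1pr2, which encodes another S1P receptor, had the opposite distribution (chromosome 9, 20873657 to 20888077, minus strand). S1pr2 was at 50.1, 58.5, 73.7, 53.3 and 49.5 CPM in control IgG input and at 22.6, 23.7, 23.1, 44.4 and 21.9 CPM in IP. In the 6-3-A6 group it was at 75.5, 53.6, 62.3, 12.1 and 60.4 CPM in input and at 26.4, 25.2, 28.4, 17.7 and 23.5 CPM in IP. Input libraries were higher than IP libraries except for input 4 of the 6-3-A6 group, the library that stood apart, which lay below every IP library.

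S1pr3 and S1pr4 were low. S1pr3, a receptor that couples to several classes of G protein (chromosome 13, 51562675 to 51576833, plus strand), was at 8.29, 5.15, 2.67, 3.28 and 1.87 CPM in control IgG input and at 3.60, 1.58, 1.09, 2.83 and 1.44 CPM in IP. In 6-3-A6 tumors S1pr3 was at 3.83, 2.66, 4.57, 1.82 and 3.30 CPM in input and at 1.60, 1.53, 3.09, 1.50 and 1.60 CPM in IP. It was lower in IP than in input in all 10 tumors, although the groups overlapped. S1pr4, a receptor known mainly from leukocytes (chromosome 10, 81333581 to 81335966, minus strand), was at 0.754, 0.736, 0.833, 0.690 and 0.837 CPM in control IgG input, on 9 to 14 counts, and at 3.91, 2.09, 3.67, 1.67 and 2.21 CPM in IP, on 26 to 64 counts. In the 6-3-A6 group it was at 1.18, 0.922, 0.669, 0.910 and 3.92 CPM in input and at 3.49, 0.980, 3.39, 3.89 and 2.38 CPM in IP. Control IgG IP and input did not overlap for S1pr4, and 6-3-A6 IP and input did, with input 5 above every IP library of its group. The remaining receptor of the family, S1pr5, had 0 to 5 counts per library and was not tested, where a count of 0 allows 3 counts.

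**Figure D1:**
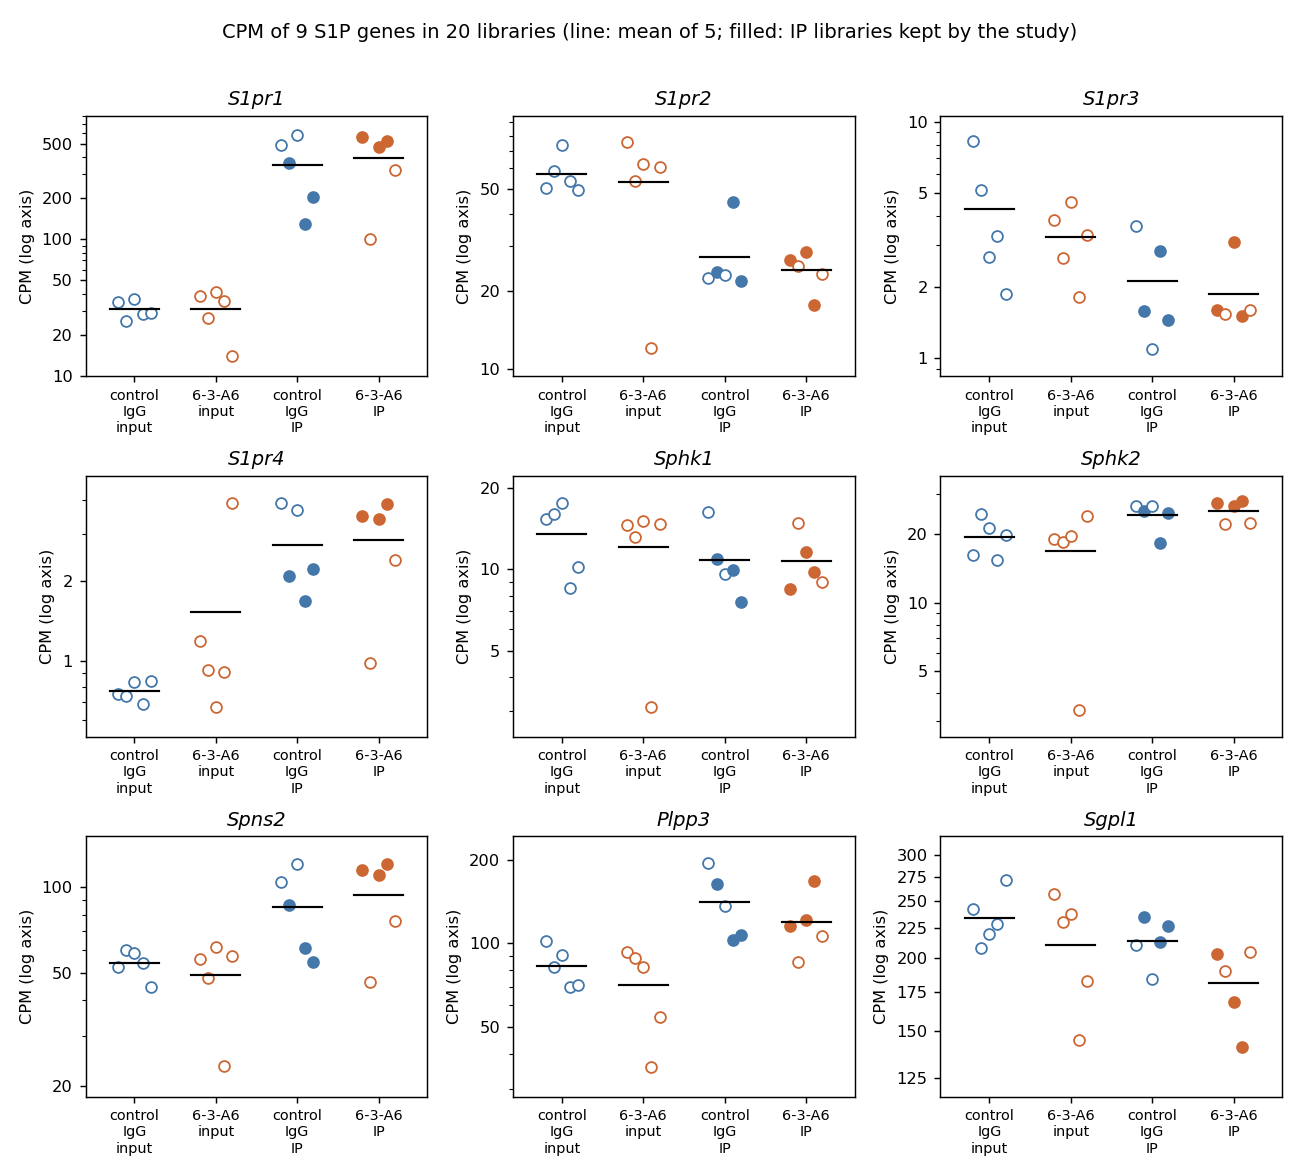
CPM (log axis) of each of the 9 genes in the 4 groups. Each point is 1 library, the line is the mean of 5 libraries, and filled points are the IP libraries that the study kept. The 10 IP libraries lie above the 10 input libraries for S1pr1 alone among the 9 genes.

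Neither of the kinases that make S1P was well separated between the fractions. Sphk1, the mainly cytosolic sphingosine kinase (chromosome 11, 116421751 to 116427501, plus strand), had a mean of 13.5 ± 3.95 CPM (SD, n = 5) in control IgG input and of 10.9 ± 3.28 CPM in control IgG IP. With 6-3-A6 the means of Sphk1 were 12.1 ± 5.10 CPM in input and 10.7 ± 2.55 CPM in IP. Sphk2, the kinase found in nuclei and mitochondria (chromosome 7, 45358891 to 45367426, minus strand), had means of 19.5 ± 3.78 CPM in control IgG input and 24.4 ± 3.45 CPM in IP. In the 6-3-A6 group the means of Sphk2 were 17.0 ± 7.91 CPM in input and 25.4 ± 2.84 CPM in IP. Both kinases were lowest in the library that stood apart, input 4 of the 6-3-A6 group, with 3.10 CPM for Sphk1 and 3.37 CPM for Sphk2.

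Spns2 exports S1P from endothelial cells (chromosome 11, 72342464 to 72380730, minus strand). It was at 52.2, 60.3, 58.7, 54.3 and 44.6 CPM in control IgG input and at 104, 86.3, 120, 61.3 and 54.5 CPM in IP. Under 6-3-A6, Spns2 was at 55.9, 48.0, 61.8, 23.5 and 57.4 CPM in input and at 114, 46.3, 110, 121 and 76.2 CPM in IP. The 3 IP libraries with the lowest endothelial marker level, IP 2 of the 6-3-A6 group and IP 4 and 5 of the control IgG group, overlapped the input libraries for Spns2, and the other 7 did not.

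Plpp3 removes phosphate from extracellular S1P and from lysophosphatidic acid (chromosome 4, 105014544 to 105089961, plus strand). It was at 102, 82.1, 90.7, 69.6 and 71.1 CPM in control IgG input and at 194, 164, 136, 103 and 107 CPM in IP, with no overlap. Under 6-3-A6, Plpp3 was at 93.2, 89.0, 82.5, 36.1 and 54.5 CPM in input and at 115, 86.0, 121, 168 and 106 CPM in IP, where IP library 2 lay among the input libraries. Sgpl1, which cleaves S1P irreversibly (chromosome 10, 60934421 to 60983482, minus strand), was at similar levels in all groups. In control IgG tumors its means were 234 ± 24.5 CPM for input and 214 ± 19.5 CPM for IP, and in 6-3-A6 tumors they were 211 ± 45.7 CPM for input and 181 ± 26.9 CPM for IP.

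Levels of different genes were compared only per length, as CPM per kb of exon with the exon lengths of GENCODE M21. In control IgG IP, S1pr1 came first with 116 ± 62.1 CPM per kb (SD, n = 5), before Plpp3 with 44.5 ± 12.2, Sgpl1 with 34.8 ± 3.17 and Spns2 with 20.9 ± 6.81 CPM per kb. The ranges of S1pr1 and Plpp3 overlapped, as did those of Plpp3 and Sgpl1, while Sgpl1 lay above Spns2 in every control IgG IP library. Sphk2, S1pr2, Sphk1, S1pr4 and S1pr3 followed at 5.86 to 0.473 CPM per kb, and each of these overlapped its neighbor. In 6-3-A6 IP the order of the genes was the same, but there Sgpl1 (22.9 to 33.3 CPM per kb) overlapped Spns2 (11.3 to 29.6). Sphk2 did not overlap S1pr2 in that group, nor Sphk1 S1pr4. In control IgG input the order was Sgpl1 with 38.1 ± 4.00, Plpp3 with 26.3 ± 4.29, Spns2 with 13.2 ± 1.52, S1pr1 with 10.1 ± 1.49 and S1pr2 with 7.15 ± 1.26 CPM per kb, then Sphk2, Sphk1, S1pr3 and S1pr4. S1pr1 thus held rank 1 in IP and rank 4 in input, and its range in input overlapped those of Spns2 and S1pr2. These ranks depend on the length used, since counts included introns: per kb of the whole gene, S1pr1 ranked 1 in both fractions and Plpp3 fell to rank 7.

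IP against input compared the level of each transcript in RNA recovered with the tagged ribosomes with its level in the whole tumor. This is a relative level and does not say whether a transcript was on endothelial ribosomes. Over the 20 libraries, 40.4% of all 14488 genes tested passed an adjusted p of 0.05 (edgeR quasi-likelihood test with Benjamini-Hochberg adjustment), and 6 of the 9 genes did, 4 higher in IP (background 19.6%) and 2 lower (background 20.8%). S1pr1 had a log2 fold change of 3.53 ± 0.30 (SE, adjusted p = 5.75e-09 by edgeR), within the range of the endothelial markers and above 98.5% of all genes tested. S1pr4 rose by 1.27 ± 0.32 on the log2 scale (edgeR adjusted p = 0.00398), Spns2 by 0.72 ± 0.18 (0.00343) and Plpp3 by 0.69 ± 0.16 (0.00173). S1pr2 fell by 1.15 ± 0.21 on the log2 scale (edgeR adjusted p = 0.000207), and S1pr3 fell by 0.97 ± 0.28 (0.00875). S1pr1 was the single gene of the 9 whose IP and input libraries did not overlap, as was the case for 5.23% of all genes.

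Sphk1 (log2 fold change -0.31 ± 0.22, edgeR adjusted p = 0.253), Sphk2 (0.39 ± 0.20, 0.124) and Sgpl1 (-0.24 ± 0.11, 0.0773) did not pass. Since input and IP of a number came from 1 tumor by the protocol, the fit was also made with the tumor as a replicate block. Sgpl1 then passed with a log2 fold change of -0.24 ± 0.09 (edgeR adjusted p = 0.0324), in a fit where 7394 of the 14488 genes passed. With input 4 of the 6-3-A6 group left out, a choice made after the data were seen, 6465 of 14696 genes and 8 of the 9 passed, with Sphk2 at 0.29 ± 0.11 (edgeR adjusted p = 0.0362) and Sgpl1 at -0.25 ± 0.10 (0.0490) in addition. In the tumors of the 6 IP libraries retained in the study, S1pr3 no longer passed (-0.84 ± 0.33, edgeR adjusted p = 0.0798).

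Within single tumors, S1pr1 was higher in IP in 10 of 10, by 1.92 to 4.52 on the log2 CPM scale, and S1pr3 lower in 10 of 10, by -1.64 to -0.20. S1pr4, Spns2, Plpp3 and Sphk2 were higher in IP in 9 of 10 tumors. S1pr2 was higher in IP in 1 of 10 tumors, at 0.54 in 6-3-A6 tumor 4, the tumor whose input library stood apart. The largest differences of Sphk2 (3.02), Spns2 (2.36), Plpp3 (2.21) and Sphk1 (1.62) were in that tumor as well. What part the state of that input library had in these differences was not tested. The deviations of the IP and input of that tumor from the group means correlated at -0.08, against up to 0.15 with another tumor.

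**Figure D2:**
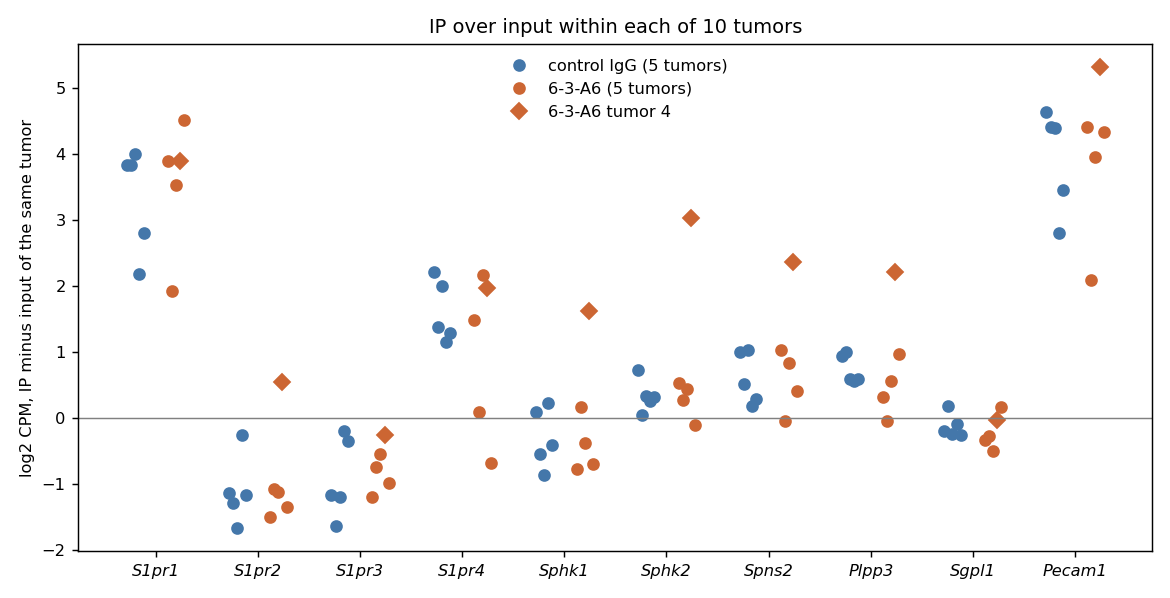
Difference in log2 CPM between the IP and the input library of each tumor (y axis) for the 9 genes and for the endothelial marker Pecam1. Each symbol is 1 tumor, and the diamond is 6-3-A6 tumor 4, whose values for S1pr2, Sphk1, Sphk2, Spns2 and Plpp3 lie above those of the other 9 tumors, as does its value for Pecam1.

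In control IgG tumors alone, 11.4% of all genes passed (8.28% higher in IP and 3.1% lower), and 3 of the 9 did. S1pr1 had a log2 fold change of 3.46 ± 0.44 (edgeR adjusted p = 7.90e-06), S1pr4 of 1.75 ± 0.46 (0.0147) and S1pr2 of -1.13 ± 0.31 (0.0184). IP and input of the control IgG group did not overlap for 4 genes, against 13% of all genes: S1pr1, S1pr4 and Plpp3 were higher (background 9.93%) and S1pr2 was lower (background 3.09%). With the tumor as a replicate block the number of genes that passed was 3249 rather than 1649, and Plpp3 (0.67 ± 0.21, edgeR adjusted p = 0.0380) and S1pr3 (-1.01 ± 0.26, 0.0155) also passed. Without the block Plpp3 was at 0.70 ± 0.23 (edgeR adjusted p = 0.0528), and it passed without 6-3-A6 tumor 4 (0.0151), whose libraries enter the shared estimate of the spread. In DESeq2 (2234 genes in all) and with RLE size factors in edgeR (1673 genes), 4 of the 9 passed, 3 of them higher in IP. S1pr2 did not pass without control IgG tumor 1, 2, 3 or 5 (edgeR adjusted p = 0.0676, 0.0954, 0.138 and 0.0644). Its log2 fold change was then -1.11, -1.07, -0.96 and -1.11. S1pr4 did not pass without tumor 1 or 3 (log2 fold change 1.57 and 1.65, edgeR adjusted p = 0.0779 and 0.0795).

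In 6-3-A6 tumors, 26.3% of all genes passed (12.8% higher in IP and 13.5% lower), and 4 of the 9 did. S1pr1 had a log2 fold change of 3.59 ± 0.44 (edgeR adjusted p = 4.15e-06), Spns2 of 0.85 ± 0.26 (0.0204), Plpp3 of 0.68 ± 0.23 (0.0339) and S1pr2 of -1.18 ± 0.31 (0.00790). S1pr1 was again the single gene without overlap of IP and input, against 14.5% of all genes. With the tumor as a replicate block, S1pr3 passed as well (-0.87 ± 0.26, edgeR adjusted p = 0.0196). Spns2 did not pass without 6-3-A6 tumor 1 or 4 (log2 fold change 0.81 and 0.62, edgeR adjusted p = 0.0669 and 0.0897). Plpp3 did not pass without tumor 3, 4 or 5 (0.73, 0.42 and 0.64, edgeR adjusted p = 0.0658, 0.165 and 0.0755).

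S1pr4 did not pass in 6-3-A6 tumors (0.82 ± 0.44, edgeR adjusted p = 0.164), and without 6-3-A6 tumor 5 it did (1.58 ± 0.39, 0.00679). In that tumor S1pr4 was at 3.92 CPM in input, against 0.669 to 1.18 CPM in the other 9 input libraries. The summed level of 12 lymphoid markers was 276 CPM in the same library, against 43.4 to 104 CPM in the other input libraries. Cd3e, a subunit of the T cell receptor complex, was at 41.0 CPM there, and Cd69, a lymphocyte activation antigen that binds S1pr1, at 20.7 CPM. S1pr1 had its lowest level of all 20 libraries in that input library, 14.0 CPM. In input 4 of the 6-3-A6 group Cd3e was likewise high at 42.1 CPM, where Cd69 was at 3.73 CPM and S1pr1 at 35.4 CPM. The IP library of 6-3-A6 tumor 5 also had the highest lymphoid sum of the IP libraries, 159 CPM against 22.1 to 42.8 CPM, with Cd3e at 29.8 and Cd69 at 14.5 CPM, while S1pr4 was at 2.38 CPM there, within the range of the other IP libraries. The part of lymphoid cells in these values was not tested.

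The difference between the IP over input changes of the treatment groups was tested as an interaction, and 0% of all genes passed in edgeR (0 also in DESeq2), with 125 genes (0.863%) at an unadjusted p under 0.05. For the 9 genes this difference ranged from -0.93 ± 0.62 on the log2 scale for S1pr4 to 0.26 ± 0.37 for Spns2, and the edgeR adjusted p was 1.00 for each. For S1pr1 it was 0.13 ± 0.56. Without 6-3-A6 tumor 5 the difference for S1pr4 was -0.16.

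The RefSeq promoter table (GRCm38.p6) matched 8 of the 9 genes, and the 250 bases before the start of transcription are printed for the 3 of these that rose in IP and for S1pr2, 1 of the 2 genes that fell, to show what letters these windows hold. Capitals mark CCGGAA (core of ETS factor sites), CACCC (core of KLF sites) and TGGGAA (core of RBPJ sites) on either strand, and the motifs do not overlap in these windows.
Spns2, chr11:72475028-72475277, minus strand: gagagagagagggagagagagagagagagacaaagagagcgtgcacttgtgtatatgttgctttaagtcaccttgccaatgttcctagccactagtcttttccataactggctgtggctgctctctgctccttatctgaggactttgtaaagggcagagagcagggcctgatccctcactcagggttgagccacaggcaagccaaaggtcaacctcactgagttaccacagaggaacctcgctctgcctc
Plpp3, chr4:105157097-105157346, plus strand: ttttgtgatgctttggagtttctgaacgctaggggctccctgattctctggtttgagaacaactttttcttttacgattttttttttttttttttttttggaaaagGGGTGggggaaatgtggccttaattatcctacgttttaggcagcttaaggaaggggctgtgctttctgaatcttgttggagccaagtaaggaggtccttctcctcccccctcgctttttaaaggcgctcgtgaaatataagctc
S1pr4, chr10:81500138-81500387, minus strand: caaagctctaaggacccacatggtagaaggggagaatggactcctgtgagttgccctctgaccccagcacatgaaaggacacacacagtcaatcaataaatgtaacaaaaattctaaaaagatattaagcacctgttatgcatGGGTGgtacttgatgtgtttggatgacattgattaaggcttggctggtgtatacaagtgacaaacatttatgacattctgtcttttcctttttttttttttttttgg
S1pr2, chr9:20976794-20977043, minus strand: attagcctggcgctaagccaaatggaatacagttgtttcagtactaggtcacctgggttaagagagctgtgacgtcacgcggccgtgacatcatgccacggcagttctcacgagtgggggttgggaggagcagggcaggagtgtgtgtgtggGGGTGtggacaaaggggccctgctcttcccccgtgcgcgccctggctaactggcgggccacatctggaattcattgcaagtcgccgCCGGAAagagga
The window of Spns2 held 0 of these motifs, those of Plpp3 and S1pr4 held 1 CACCC each, and that of S1pr2 held 1 CACCC and 1 CCGGAA. The window of S1pr3, the other gene that fell, is not printed and held 2 CACCC and 0 of the other motifs. Of all 32851 windows of this length in the table, 52.0% held CACCC, 12.0% CCGGAA and 21.6% TGGGAA. A match here is a description of letters, and its absence says only that these letters are not in the window.

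Treatment with 6-3-A6 was compared with control IgG first in the 6 IP libraries retained in the study, where 4.61% of 13999 genes passed (2.57% higher in 6-3-A6 and 2.04% lower) and 0 of the 9 genes did. At an unadjusted p under 0.05 there were 3 of the 9 (S1pr1, S1pr4 and Spns2), against 19.5% of all genes. For S1pr1 the log2 fold change was 1.14 ± 0.33 (edgeR adjusted p = 0.0743), with 362, 129 and 204 CPM in control IgG IP 2, 4 and 5 and 568, 474 and 526 CPM in 6-3-A6 IP 1, 3 and 4. For Spns2 it was 0.74 ± 0.20 (edgeR adjusted p = 0.0657), with 86.3, 61.3 and 54.5 CPM in control IgG and 114, 110 and 121 CPM in 6-3-A6. For S1pr4 it was 0.80 ± 0.28 (edgeR adjusted p = 0.139), on 2.09, 1.67 and 2.21 CPM in the control IgG libraries and 3.49, 3.39 and 3.89 CPM in 6-3-A6. Libraries of the groups were fully separated for 5 of the 9 genes, against 24% of all genes: these 3 and Sphk2 were higher in 6-3-A6 (background 13.5%), and Sgpl1 was lower (background 10.5%, log2 fold change -0.43 ± 0.21, edgeR adjusted p = 0.287). Control IgG IP 4, lowest in S1pr1 of the 6, had the highest mitochondrial share of the IP libraries, 11.3% against 0.758% to 4.70% in the others.

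S1pr1 and Spns2 lay near the threshold, and whether they passed varied with the test. In DESeq2 both passed (adjusted p = 0.00500 and 0.0177), as they did in edgeR with no filter on low counts (0.000463 and 0.0268) and without control IgG IP 2 (0.0149 and 0.0372). Over all alternatives, the adjusted p of S1pr1 ranged from 0.000463 to 0.883. With the endothelial score of each library (endothelial markers minus the average of macrophage, fibroblast and epithelial markers) as a covariate, SEs were larger. That score was 2.06, 0.66 and 1.67 in control IgG IP 2, 4 and 5 and 3.38, 3.37 and 3.55 in 6-3-A6 IP 1, 3 and 4. With no overlap between the groups, this fit cannot separate the score from treatment. In it the log2 fold change of S1pr1 was -0.63 ± 0.52 (edgeR adjusted p = 0.883), and that of Spns2 was 0.25 ± 0.49 (0.941). All 12 endothelial markers had positive log2 fold changes in the same comparison, with a median of 0.79, and 2 of them passed, while all 11 tested macrophage markers had negative ones, with a median of -1.0, and 6 of them passed. Among the libraries left out, the endothelial marker level was 8.25 and 8.07 on the log2 CPM scale in control IgG IP 1 and 3, the highest of the 10 IP libraries. It was 5.60 and 7.57 in 6-3-A6 IP 2 and 5, below the 3 that were kept. The left-out libraries had 492 and 580 CPM of S1pr1 in control IgG mice, against 101 and 322 CPM in 6-3-A6.

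Over all 10 IP libraries, which include the former 6, 0% of 13602 genes passed in edgeR (0 also in DESeq2), with 292 genes (2.15%) at an unadjusted p under 0.05, and 0 of the 9 genes were below 0.05 without adjustment. The log2 fold change of S1pr1 was 0.17 ± 0.46 there, that of Spns2 0.13 ± 0.27 and that of S1pr4 0.06 ± 0.36. Those of the 9 genes ranged from -0.25 ± 0.21 for Plpp3 to the value of S1pr1, and the edgeR adjusted p was 1.00 for each. The groups overlapped for all 9, against 0.206% of all genes without overlap.

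In input, 0% of 13683 genes passed in edgeR (0 also in DESeq2), with 180 genes (1.32%) at an unadjusted p under 0.05 and 0 of the 9 among them. S1pr4 had the largest log2 fold change of the 9, 0.97 ± 0.48 (edgeR adjusted p = 1.00), in which input 5 of the 6-3-A6 group stood above the rest, and 0.28 without that library. The other 8 genes ranged from -0.39 ± 0.40 for S1pr3 to 0.04 ± 0.26 for S1pr1.

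**Figure D3:**
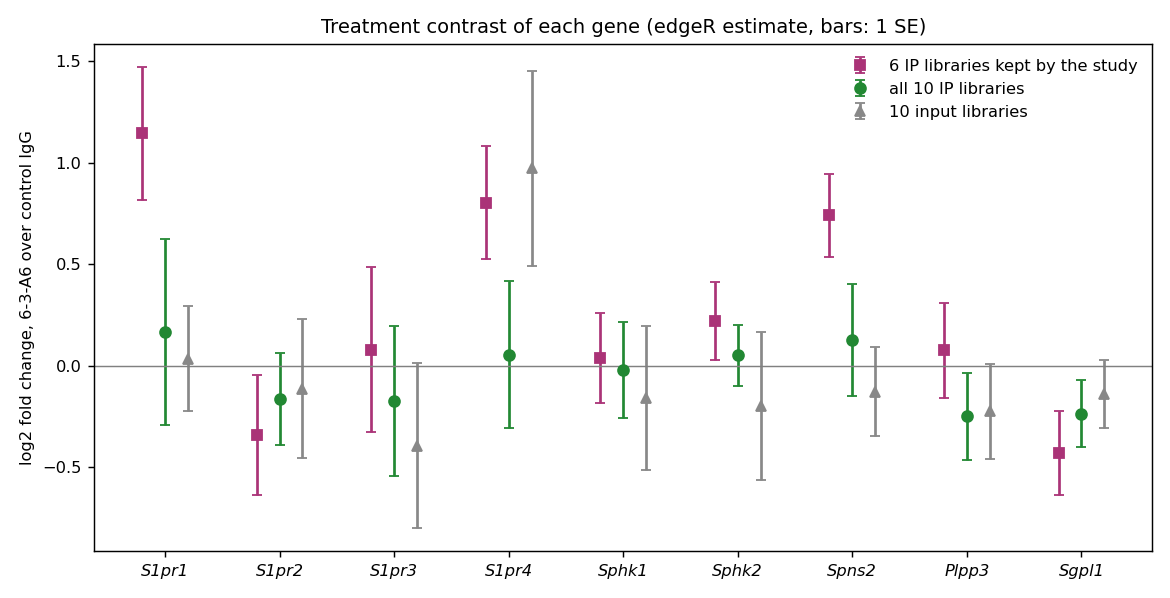
Log2 fold change of 6-3-A6 over control IgG (y axis, bars are 1 SE derived from the edgeR F statistic) in the 6 IP libraries retained in the study, all 10 IP libraries and the 10 input libraries. S1pr1 lies at 1.14 in the first and at 0.17 in the second comparison, which share 6 libraries.

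To set each gene against the endothelial content of its library, the mean log2 CPM of the 12 endothelial markers was subtracted, a measure chosen after the data were seen. For S1pr1 in IP the SD over 10 libraries was 0.92 before and 0.18 after this subtraction, and for Pecam1, itself in the list, it was 1.02 before and 0.19 after. After subtraction S1pr1 was at 0.95 ± 0.17 in control IgG IP and at 1.08 ± 0.19 in 6-3-A6 IP (SD, n = 5, exact two-sided permutation test p = 0.317, 1 of 9 genes compared in this way, with no adjustment). In the 6 retained libraries the values were 0.99 ± 0.10 and 1.19 ± 0.09 (n = 3, exact permutation p = 0.2, where 0.1 is the smallest that 3 against 3 can give). The marker mean was itself higher in 6-3-A6 in these 6 libraries, at 7.91, 7.65 and 7.95 against 7.61, 5.91 and 6.71, so that any gene with a smaller change comes out lower after subtraction, and the other 8 genes are not compared there. Over all 10 IP libraries the differences of the other 8 genes ranged from -0.27 for Sgpl1 to 0.09 for Spns2 (exact permutation p = 0.571 to 0.968). Against Pecam1 alone, the difference in log2 CPM was -1.51 ± 0.17 in control IgG IP and -1.24 ± 0.35 in 6-3-A6 IP (exact permutation p = 0.159, n = 5). In the 6 retained libraries it was -1.51 ± 0.20 and -1.15 ± 0.18 (exact permutation p = 0.1, the smallest possible, n = 3).

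The other genes kept more spread after subtraction, which also grows where a gene follows the markers with a smaller slope. Over the 10 IP libraries, Pearson r with the marker mean was 0.980 for S1pr1, 0.921 for S1pr4, 0.909 for Spns2, 0.792 for Sphk2 and 0.768 for Plpp3, and between -0.538 (S1pr2) and -0.00836 (S1pr3) for the other 4 genes, as a description over points that share library and depth. For S1pr4 the SD over the 10 IP libraries was 0.62 before and 0.43 after subtraction, and for Spns2 it was 0.51 in both cases. For S1pr2 it grew from 0.34 to 1.15, for Sgpl1 from 0.22 to 1.00, for Sphk2 from 0.19 to 0.79, for Sphk1 from 0.34 to 1.01, for S1pr3 from 0.53 to 1.07 and for Plpp3 from 0.37 to 0.69. In input the same subtraction lowered the SD of S1pr2 from 0.75 to 0.29 and that of Spns2 from 0.41 to 0.20, where 6-3-A6 input 4 was lowest in both genes and in the markers. The SD in input also fell for S1pr3, Sphk1, Sphk2 and Plpp3. It grew for S1pr1 (0.44 to 0.78), S1pr4 (0.70 to 0.82) and Sgpl1 (0.26 to 0.44). S1pr1 in input after subtraction ranged from 0.38 in 6-3-A6 input 5 to 3.44 in 6-3-A6 input 4, wider than in IP.

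**Figure D4:**
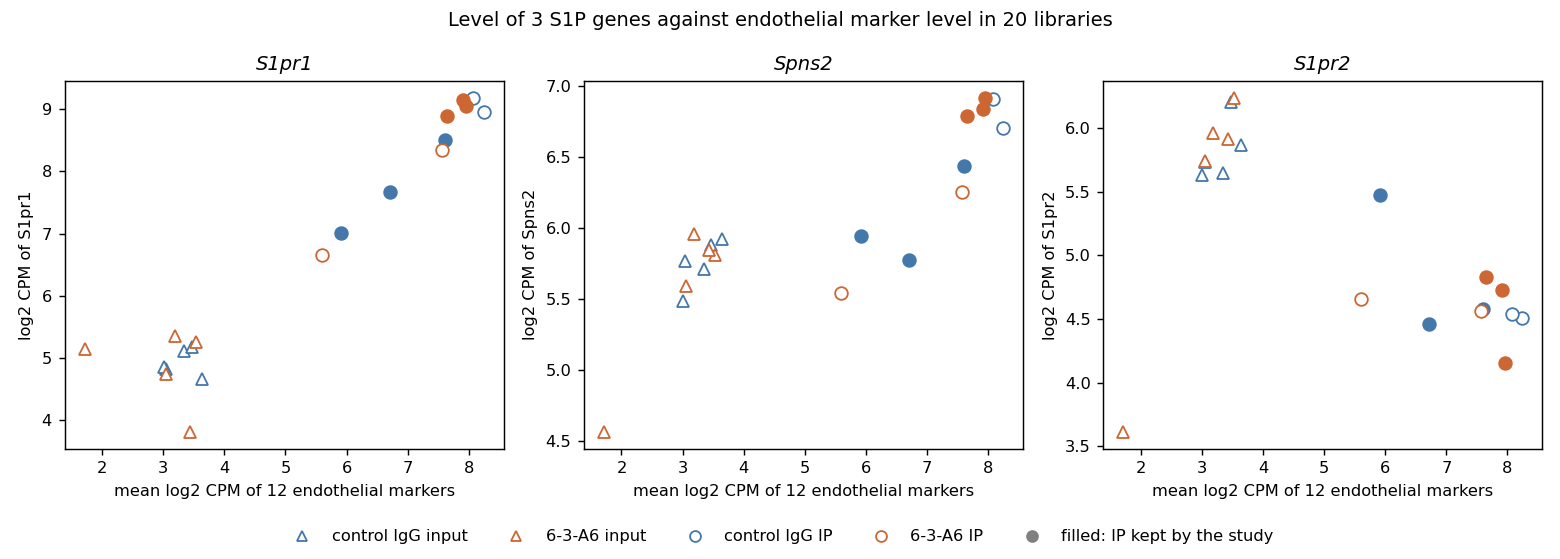
Log2 CPM of S1pr1, Spns2 and S1pr2 (y axes) against the mean log2 CPM of 12 endothelial markers (x axes) in 20 libraries, triangles for input and circles for IP, filled where the study kept the IP library. S1pr1 in IP climbs from 6.65 to 9.18 with the markers, and the library at the far left is 6-3-A6 input 4.

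The genes whose log2 CPM was most like that of each gene over the 10 IP libraries are given by Pearson r as a description, since all points share library and depth. For S1pr1 they were Bace2 (0.992), Npr2 (0.990) and Sema6b (0.988). For Spns2 they included Gnai2 (0.982), an inhibitory G protein subunit, and Slc52a3 (0.981). For S1pr4 they were Myct1 (0.975), Mxra7 (0.971) and C2cd2 (0.970). For Plpp3 the most like was Fam171a2 (0.935), for Sgpl1 Lrig2 (0.948), for S1pr3 Fa2h (0.923), for Sphk1 Gm20337 (0.929) and for Sphk2 Pgm2l1 (0.976). For S1pr2 it was Lpar2 (0.913), a receptor of the related lipid lysophosphatidic acid (LPA). S1pr2 was at 44.4 CPM in control IgG IP 4, against 17.7 to 28.4 CPM in the other IP libraries, and r without that library was not computed.

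Other genes of the route were described by lists. Of 12 further genes of S1P handling, 10 were tested between IP and input, and 3 were higher and 3 lower in IP, where 19.6% of all genes were higher and 20.8% lower. Their median log2 fold change was -0.35 against -0.06 over all genes. Plpp1, a lipid phosphatase related to Plpp3, rose by 0.93 ± 0.22 on the log2 scale (edgeR adjusted p = 0.00210), and Klf2, a flow-responsive transcription factor of endothelial cells, rose by 0.81 ± 0.24 (0.0106). Sgpp1, an intracellular S1P phosphatase, fell by 0.80 ± 0.19 (edgeR adjusted p = 0.00255). Among 14 G proteins, arrestins and effectors of S1P receptors, 7 were higher and 0 lower, against the same 19.6% and 20.8% of all genes, with a median of 0.34. Gnai1, an inhibitory G protein subunit, rose by 3.13 ± 0.27 (edgeR adjusted p = 7.37e-09), Arrb1, an arrestin that desensitizes receptors, by 1.66 ± 0.25 (1.79e-05) and Rock1, a kinase that promotes actomyosin contraction, by 1.16 ± 0.24 (0.000606).

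Of 26 genes of ceramide and sphingolipid synthesis, 20 were tested, and 8 were higher and 6 lower in IP (19.6% and 20.8% of all genes), with a median of 0.10. Acer2, a ceramidase that releases sphingosine, rose by 4.00 ± 0.58 on the log2 scale (edgeR adjusted p = 1.31e-05) and the ceramide synthase Cers4 by 2.56 ± 0.33 (3.41e-06), while the ceramide synthase Cers6 fell by 0.90 ± 0.16 (0.000152). Of 7 LPA genes, 5 were tested, and 1 was higher and 3 lower, against the same shares of all genes. Lpar4 rose by 3.86 ± 0.34 (edgeR adjusted p = 8.56e-09), and Lpar5 and Lpar1 fell by 1.17 ± 0.25 (0.000926) and 1.01 ± 0.20 (0.000406).

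In the treatment comparison of the 6 IP libraries retained in the study, 2 of 9 tested S1P handling genes, 1 of 20 ceramide genes, 2 of 14 G protein and arrestin genes and 0 of 5 LPA genes passed as higher in 6-3-A6 (2.57% of all genes), and 0 of each passed as lower (2.04%). Where 19.5% of all genes were at an unadjusted p under 0.05, 2, 4, 5 and 0 genes of these lists were higher and 2, 4, 1 and 2 lower. Acer2 had a log2 fold change of 2.39 ± 0.39 (edgeR adjusted p = 0.0178), Plpp1 of 1.21 ± 0.24 (0.0255), Arrb1 of 1.08 ± 0.23 (0.0286), Klf2 of 0.84 ± 0.20 (0.0413) and Gna11, a G protein subunit that activates phospholipase C, of 0.73 ± 0.18 (0.0458). Klf2 was at 48.3, 37.9 and 39.9 CPM in the control IgG libraries kept and at 59.6, 81.6 and 91.0 CPM in those of 6-3-A6. The control IgG IP libraries left out had 92.8 and 43.9 CPM of Klf2, and those of 6-3-A6 had 41.8 and 77.7 CPM. The endothelial markers moved in the same direction in these 6 libraries, as given above, and with the endothelial score as a covariate 0 of 13999 genes passed. That score did not overlap between the groups, so this fit cannot separate it from treatment. The log2 fold changes then were 2.22 ± 0.99 for Acer2, 0.69 ± 0.60 for Plpp1, 0.37 ± 0.53 for Arrb1, 0.38 ± 0.51 for Klf2 and 0.63 ± 0.47 for Gna11 (edgeR adjusted p = 0.875 to 0.924). Over all 10 IP libraries 0 genes of these lists passed.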

How the data were processed

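The 9 genes and all gene lists were chosen with earlier results of these data known. The authors aligned 100 bp single reads with STAR (2.7.4a), named mm10 as the genome, and deposited raw counts made with featureCounts (2.0.1 in the methods, while 1.5.2 also appears in the submitters' processing notes) for 20 libraries. The coordinates of the counts follow GRCm39: of 50664 genes matched by name, 2.77% had the GRCm38 start. The strandedness of the counting is not given in the sources used here. A second table, of the authors' DESeq2 comparison, holds as deposited a signal per library (the count divided by a constant), which was used only to identify the 6 IP libraries kept by the study. Its log2 fold changes with standard errors, p-values and adjusted p-values, mean signal and test score were made by the authors and were not used. For the 6-3-A6 samples 1 label names the opposite fraction, and the titles and source names were followed.

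Counts were tested in R 4.3.3 with edgeR 4.0.16 (TMM, filterByExpr by group, quasi-likelihood F test, Benjamini-Hochberg adjustment over all genes tested, threshold 0.05). IP against input over 20 libraries included treatment as a term, and the changes within each treatment group and the interaction came from a model of 4 groups over 20 libraries. Log2 CPM used a prior count of 2, and the endothelial score used as a covariate was the mean log2 CPM of the endothelial markers minus the average of the means of the macrophage, fibroblast and epithelial markers. Each SE of an edgeR log2 fold change was derived as the absolute log2 fold change divided by the square root of the F statistic. The tests were checked on simulated counts. Within each of the 4 groups the libraries came from separate tumors, and no pair of libraries of a group agreed within sampling noise. Totals ranged from 11881214 to 26728205 counts, and counting error alone is covered by the floor of 3 counts. IP and input of a number came from 1 tumor by the protocol, and their deviations from the group means correlated at -0.08 to 0.70 (over 0.1 in 8 of 10 tumors). In control IgG tumors 2 and 4 this r (0.16 and 0.047) was below the highest r with another tumor (0.23 and 0.38). The same held for tumor 4 of the treated group (-0.08 against 0.15). In each of the other tumors, r within the tumor was the higher. Where it was not, the pairing rests on the protocol alone, and its correctness was not tested. Alternatives were DESeq2 1.42.0, RLE size factors, no filter, the replicate block, the endothelial score as a covariate, the tumors kept by the study and each library or tumor left out.

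The genes named are the 9 genes, up to 3 called genes per list and comparison by size of the log2 fold change, and the genes most like each of the 9. One of the latter is not reported here. Values of S1pr5, Cd3e, Cd69, Klf2 and Pecam1 are given for some libraries, beside the results they touch.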

Additional observations from a re-analysis of the deposited data

Results flagged for a closer look

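Of 36 groups of 5 libraries (9 genes in 4 groups), 7 had a library whose gap to its neighbor on the log2 CPM scale exceeded Dixon's critical value for the range of the group, where chance flags about 1 in 20. Of these, 4 were the lowest values of 6-3-A6 input 4: S1pr2 with 12.1 CPM, Sphk1 with 3.10 CPM, Sphk2 with 3.37 CPM and Spns2 with 23.5 CPM. That library had the highest mitochondrial share of all 20, 38.2%, and S1pr1 was not low in it, with 35.4 CPM. Control IgG IP 4 had the highest S1pr2 of its group, 44.4 CPM, and the lowest Sphk2, 18.4 CPM. It also had the highest mitochondrial share of the IP libraries, 11.3%, against 0.758% to 4.70% in the others. S1pr3 in 6-3-A6 IP 3 was the highest of its group with 3.09 CPM, on 71 counts. On the CPM scale itself 6 did, of which 5 were the same: S1pr2 and Spns2 of 6-3-A6 input 4 were no longer past the value, and S1pr4 of 6-3-A6 input 5, the highest of its group with 3.92 CPM, was. The part of library quality in these values was not tested.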

How the results depend on the processing

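Of 297 log2 fold changes of the 9 genes under alternatives other than a left-out library or tumor, 270 kept their sign and their side of the threshold, and of 594 with a library or tumor left out, 534 did. IP against input gave 4965 to 6054 genes with 1 tumor left out and 3416 in the tumors retained in the study, and 6 of the 9 genes in each of the former. Within control IgG tumors these counts were 770 to 2322 genes and 1 to 4 of the 9, and with the replicate block 3249 and 5. Within 6-3-A6 tumors they were 2654 to 3892 genes and 2 to 4 of the 9, with the replicate block 5554 and 5, and without input 4 alone (chosen after the data were seen) 4002 and 3, where Plpp3 did not pass (0.56, edgeR adjusted p = 0.0605). For treatment in the 6 retained IP libraries, DESeq2 gave 1190 genes and 2 of the 9, no filter 1459 and 2, the endothelial covariate 0 and a left-out library 9 (without 6-3-A6 IP 3) to 653 and 0 to 2. Without control IgG IP 4 there were 188 genes, without 6-3-A6 IP 1 345 and without 6-3-A6 IP 4 161. With that covariate, whose values did not overlap between the groups, the log2 fold change turned for S1pr1 (-0.63), S1pr2 (1.23), Sphk2 (-0.43) and Plpp3 (-0.77). With a library left out, the log2 fold changes of Plpp3 (-0.092 to 0.35), S1pr2 (-0.51 to 0.086), S1pr3 (-0.35 to 0.46) and Sphk1 (-0.090 to 0.18) took both signs. The cause was not tested.

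All other turns of sign were of log2 fold changes that did not pass. Over all 10 IP libraries these were S1pr4 with the replicate block (-0.00028), S1pr1 (-0.12), S1pr4 (-0.17) and Spns2 (-0.036) with the covariate, and, with a library left out, S1pr1 (-0.038 to 0.41), S1pr2 (-0.23 to 0.092), S1pr3 (-0.43 to 0.11), S1pr4 (-0.067 to 0.27), Sphk1 (-0.17 to 0.17) and Sphk2 (-0.025 to 0.087). In input these were S1pr1 with no filter (-0.0066) or the replicate block (-0.042), and, with a library left out, S1pr1 (-0.072 to 0.22), S1pr2 (-0.27 to 0.13), S1pr3 (-0.59 to 0.012), Sphk1 (-0.28 to 0.076), Sphk2 (-0.36 to 0.052) and Spns2 (-0.22 to 0.033). In the interaction these were S1pr2 (0.15) and Plpp3 (0.026) with the replicate block, Sphk1 without input 4 of the 6-3-A6 group (-0.080), and, with a tumor left out, S1pr1 (-0.040 to 0.31), S1pr2 (-0.22 to 0.24), Plpp3 (-0.30 to 0.15), Sphk1 (-0.039 to 0.28) and Sphk2 (-0.018 to 0.46).

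Between treatments, the sources used here link libraries of a number only by the number. Their deviations correlated at -0.19 to 0.37 in IP and -0.33 to 0.24 in input, highest for number 3 in both fractions. Whether libraries of a number also shared a batch was not tested. In this comparison the replicate block left 0 genes called in IP and in input. Beside the calls given with the results, the block changed no other call. No paired analysis was possible for the 6 IP libraries retained in the study, because their groups share 1 number. Between IP and input, S1pr1 was at 3.56 in DESeq2 and 3.53 in edgeR. The low counts of S1pr4 and S1pr3 limit what could be detected.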
